A study of Mus musculus with 2 samples.

Results

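Expression of 69 genes that encode histone-modifying enzymes and chromatin remodelers was compared between 2 samples of mouse embryonic stem cells. The genes are those whose symbol begins with Kdm, Kmt2, Setd, Hdac, Kat, Sirt or Smarc. They were taken from 22180 genes that have a probe set with exactly 1 gene symbol on an Affymetrix whole-transcript array, leaving out 2 genes by name and the katanin genes, whose symbols begin with Katn. They stand on 72 probe sets, and where a gene had several, the one with the highest mean over both samples was kept. Kat14 and Smarcd3 share their probe sets with other genes and were not analysed here.

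One sample came from a stable line of Niwa embryonic stem cells expressing EWS-OCT4A-GFP, called the fusion line here. The fusion joins the EWS protein to the OCT4A isoform of the pluripotency factor OCT4. The other came from a stable line expressing GFP, called the control line. Both were grown with LIF and had their endogenous OCT-4 reduced by doxycycline (1 µg/ml). The sources used here give neither the length of the treatment nor whether each line is a single clone. Each line has 1 sample, so no difference below has a replicate check and no p-value is given. There was no sample without doxycycline, so a difference cannot be assigned to one line or the other.

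Histone acetyltransferases, among them the Kat enzymes, and histone methyltransferases, among them the Kmt2 enzymes, write marks on histone tails. Deacetylases (Hdac and the NAD-dependent Sirt enzymes) and demethylases (Kdm) remove them. Methylation of lysine 4 of histone H3 marks promoters and enhancers in use, whereas methylation of lysine 9 or lysine 27 accompanies silencing. Most Smarc genes encode subunits of the SWI/SNF (BAF) complexes, which move nucleosomes with the energy of ATP. Embryonic stem cells use a form of BAF built around the ATPase BRG1 (Smarca4). Loss of OCT4 is known to turn such cells towards trophectoderm.

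Values are RMA summaries on a log2 scale, and a difference is the value of the fusion line minus that of the control line. A gene is called higher or lower when it differed by at least 2-fold and its higher value reached 4.10, the median of all values, called the floor here. Of the 69 members 65 reached the floor. The 4 that did not were Hdac9, Kdm4d, Smarca1 and the pseudogene Smarca5-ps, and differences among such low values are compressed. They count in the medians and signs below but were not called.

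The samples also differed in cell type markers. Of 12 embryonic stem cell markers 11 were at least 2-fold higher in the fusion line, with median values of 8.65 there and 5.79 in the control line. The exception was Pou5f1 itself (5.37 and 5.24), and the sources used here do not say whether its probes detect the transgene. Of 14 trophectoderm markers 11 were at least 2-fold lower, with medians of 4.39 and 8.09. Of 8 primitive endoderm markers 4 were lower, with medians of 4.23 and 5.32, and of 10 fibroblast markers 2 were lower, with medians of 4.27 and 4.73. RMA gives no value of 0, so no marker could be listed as absent. The label embryonic stem cell was thus matched by its markers in the fusion line and less so in the control line. The part of this shift in the differences below was not tested, and altered expression within cells and an altered mix of cells cannot be told apart in bulk RNA.

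As a whole the members differed about as often as other genes did. At the 2-fold size 4 members were higher, or 6.15% of the 65 at or above the floor, against 9.31% of the 13516 genes that reached the floor. The 7 lower members made up 10.8%, against 11.9%. The higher count includes Smarcd1, whose 2 probe sets differed in opposite directions. With its other probe set 3 members (4.62%) were higher and 8 (12.3%) lower. At least 3-fold higher were 2 of the 65 members (background 464 of 13516 genes, or 3.43%). At least 3-fold lower were also 2 of the 65 (background 786, or 5.82%). At a 1.5-fold size 10 of the 65 were higher and 13 lower, where the backgrounds were 2708 (20.0%) and 2784 (20.6%) of the 13516. The median difference of all members was -0.05, beside 0.00 for all genes, whether or not they reached the floor. Among genes at or above the floor the medians were -0.06 for members and 0.03 for all genes. The shares lie near the background, so the description turns on which members differed.

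**Figure D1:**
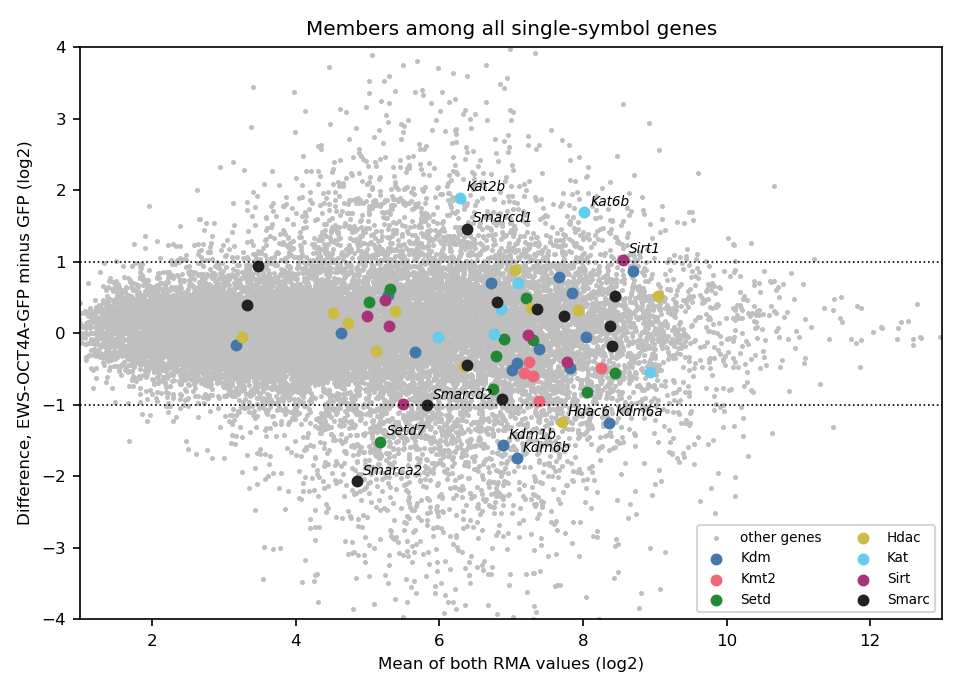
Difference (EWS-OCT4A-GFP minus GFP, log2) against the mean of both RMA values (log2) for the 69 members, coloured by symbol prefix, and for all other single-symbol genes in grey, of which 101 lie outside the plotted range. Dotted lines mark 2-fold. The 11 members past 2-fold and above the floor are named, and the others lie inside the band of most genes.

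The genes past 2-fold were spread over the prefixes. The acetyltransferase genes Kat2b and Kat6b, the deacetylase gene Sirt1 and, on 1 of its 2 probe sets, the BAF subunit gene Smarcd1 were higher in the fusion line. Lower were the demethylase genes Kdm1b, Kdm6a and Kdm6b, the methyltransferase gene Setd7, the deacetylase gene Hdac6 and the BAF subunit genes Smarca2 and Smarcd2. The remaining 58 members had differences between -0.99 and 0.94. Sirt1 (1.03) and Smarcd2 (-1.01) lie just past the 2-fold size, and Sirt7 (-0.99) and Kmt2e (-0.95) just short of it. Centring both samples on their medians left Sirt1 short of 2-fold and took Sirt7 past it. Loess centring did the same, and also took Kmt2e and Smarcc2 past 2-fold. With the mean of a gene's probe sets Smarcd1 (0.21) and Kdm6b (-0.95) were no longer past 2-fold.

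**Figure D2:**
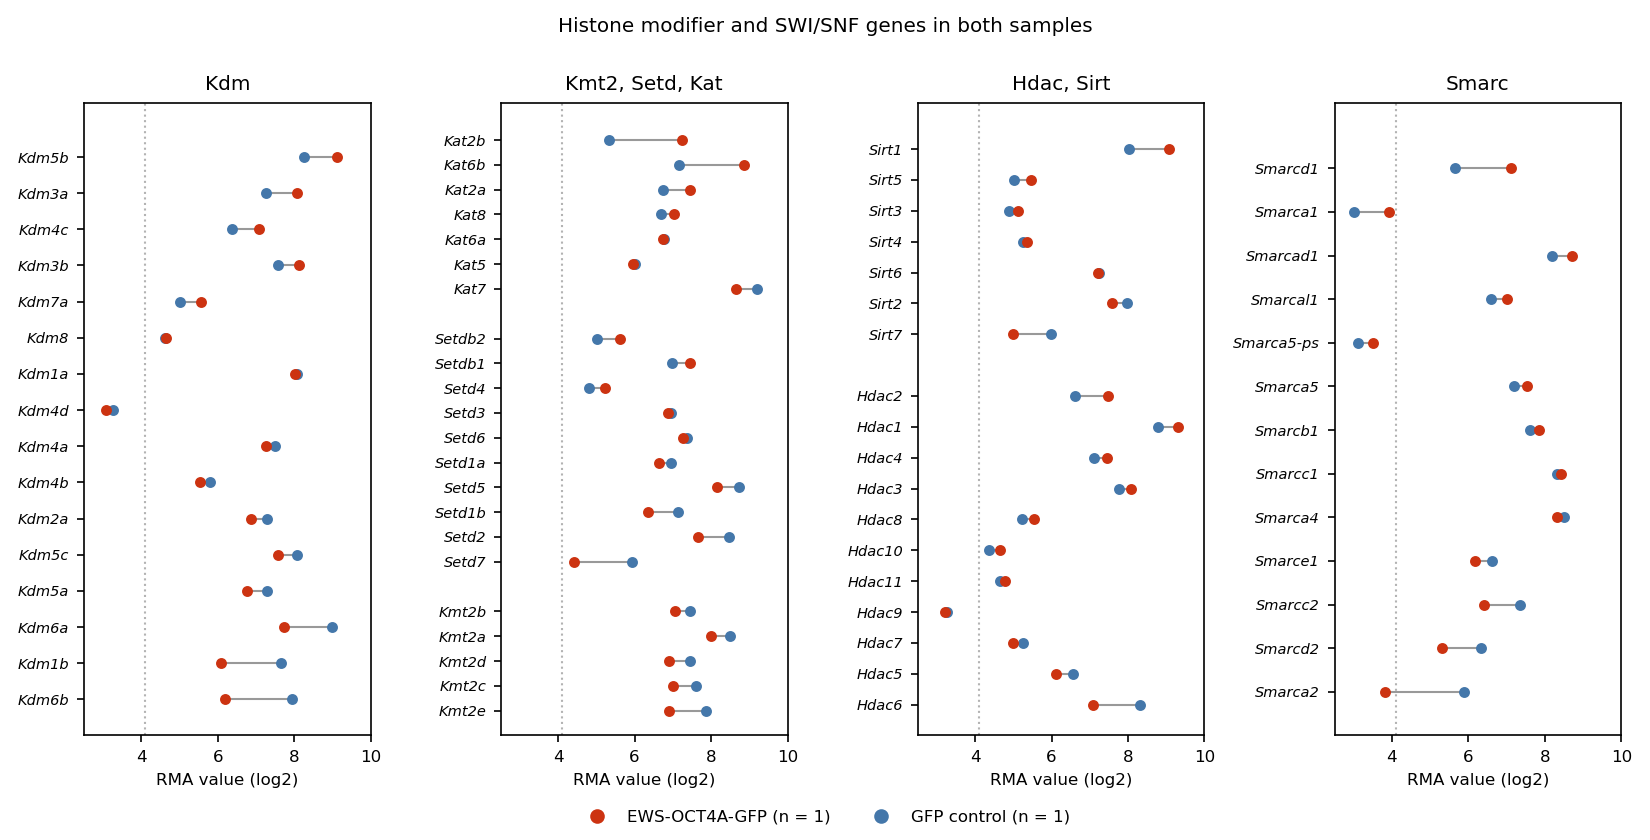
RMA values (log2) of all 69 members in the fusion line (red) and the GFP control (blue), 1 sample each, sorted within each prefix by their difference. The dotted line is the floor of 4.10, and all 5 Kmt2 genes have the blue point to the right of the red one.

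Promoter sequences are shown for a pair of paralogs from each of the families with the largest differences. Each pair sets the paralog past 2-fold beside the one within 2-fold. RefSeq windows of assembly GRCm38.p6 were matched for 55 of the 69 members, 70 windows in all, and the 250 bases before each start site were read. Capitals mark CG pairs, the target of DNA methylation, and each sequence runs 5′ to 3′ on the strand of the gene. The windows are chr19:26604910-26605159 on the + strand for Smarca2, chr9:21615919-21616168 on the + strand for Smarca4, chr11:100712468-100712717 on the - strand for Kat2a and chr17:53566721-53566970 on the + strand for Kat2b, which has a second window.
Smarca2: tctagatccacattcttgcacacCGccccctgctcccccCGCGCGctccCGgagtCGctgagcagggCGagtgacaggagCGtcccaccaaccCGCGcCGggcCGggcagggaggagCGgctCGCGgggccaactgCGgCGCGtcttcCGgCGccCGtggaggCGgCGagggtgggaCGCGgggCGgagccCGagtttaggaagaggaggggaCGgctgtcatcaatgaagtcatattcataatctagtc
Smarca4: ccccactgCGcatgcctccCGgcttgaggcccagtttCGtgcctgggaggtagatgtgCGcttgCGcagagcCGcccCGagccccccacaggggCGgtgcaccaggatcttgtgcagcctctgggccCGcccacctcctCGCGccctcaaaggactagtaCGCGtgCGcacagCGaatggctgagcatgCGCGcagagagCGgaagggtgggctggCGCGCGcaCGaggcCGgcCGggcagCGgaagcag
Kat2a: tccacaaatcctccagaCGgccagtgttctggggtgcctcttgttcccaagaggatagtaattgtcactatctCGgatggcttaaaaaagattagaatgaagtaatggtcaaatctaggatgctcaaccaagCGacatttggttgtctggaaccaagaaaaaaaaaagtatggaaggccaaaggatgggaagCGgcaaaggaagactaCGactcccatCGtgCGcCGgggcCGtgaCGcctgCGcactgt
Kat2b: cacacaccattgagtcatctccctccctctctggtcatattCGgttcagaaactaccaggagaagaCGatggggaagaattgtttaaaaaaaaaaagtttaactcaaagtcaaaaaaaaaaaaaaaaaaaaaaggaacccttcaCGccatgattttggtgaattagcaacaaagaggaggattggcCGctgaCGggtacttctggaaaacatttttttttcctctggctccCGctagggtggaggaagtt

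Windows of the members were rich in CG pairs, with a median of 17.5, beside 15 in the windows of genes that reached the floor and 6.0 in the windows of all genes. The median GC content was 60.6%, beside 59.6% and 52.4%. Smarca2 holds 28 CG pairs and Smarca4 25, although only Smarca2 was past 2-fold. Kat2b holds 6 (5 in its other window) and Kat2a 11. Of these 4 genes only Smarca2 and Kat2b were past 2-fold, and whether CG density goes with the differences of the members was not tested.

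Short motifs were searched on both strands of the same windows. The octamer bound by POU factors (ATGCAAAT, or ATTTGCAT on the other strand) occurred in 1 of the 70 windows (1.43%), that of Hdac9. It occurred in 1.18% of the windows of genes that reached the floor and in 1.60% of all windows. An E2F motif (TTTGGCGC, or GCGCCAAA) occurred in 0 windows of members, in 0.769% of the windows of genes that reached the floor and in 0.417% of all windows. The E-box CACGTG, which reads the same on both strands, occurred in 4 windows, or 5.71%, beside 8.38% and 6.02%. These shares describe letters in these windows and say nothing of binding. The 4 members with the E-box are shown because Sirt1 and Kdm6a, past 2-fold in opposite directions, are among them. The windows of Sirt1 and Kdm4c each hold 2 copies of the motif, of which 1 is shown. The stretches of 60 bases, with the motif in capitals, are chr10:63339118-63339177 (- strand) for Sirt1, chrX:18162515-18162574 (+ strand) for Kdm6a, chr4:74251767-74251826 (+ strand) for Kdm4c and chr19:5610248-5610307 (- strand) for Kat5.
Sirt1: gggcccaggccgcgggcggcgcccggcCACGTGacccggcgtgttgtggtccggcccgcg
Kdm6a: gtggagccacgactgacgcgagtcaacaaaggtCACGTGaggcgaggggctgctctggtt
Kdm4c: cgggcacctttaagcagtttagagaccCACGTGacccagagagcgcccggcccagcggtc
Kat5: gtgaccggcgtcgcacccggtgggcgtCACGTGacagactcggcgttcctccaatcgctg

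Among the writers, the Kat acetyltransferases had the highest median difference of the 7 prefixes, 0.34 over 7 genes, with 2 members higher and 0 lower (28.6% and 0%, beside 9.31% and 11.9% of all genes). Kat2b, which encodes PCAF, a catalytic subunit of SAGA-type complexes, read 7.23 in the fusion line and 5.34 in the control line. Its difference was 1.89, or 3.71-fold. Its paralog Kat2a, which encodes GCN5 and takes the same place in those complexes, read 7.45 and 6.75, a difference of 0.70 that stayed within 2-fold.

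The other Kat genes encode the MYST acetyltransferases. Kat6b, which encodes MORF, an enzyme that acetylates histone H3, read 8.86 in the fusion line and 7.17 in the control line, a difference of 1.69 or 3.24-fold. Its paralog Kat6a, which encodes MOZ, read 6.75 and 6.77. The values of Kat6a were thus nearly equal while those of Kat6b were not. Kat7, which encodes HBO1, had the lowest difference among the Kat genes (8.66 and 9.21, or -0.55). Kat8, which encodes MOF, the acetyltransferase of lysine 16 of histone H4, differed by 0.34, and Kat5, which encodes TIP60, by -0.06.

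Acetyltransferases and partner subunits outside the Kat prefix formed a list of 37 genes, of which 36 were measured. Their median was 0.11, with 2 genes higher (5.56%) and 6 lower (16.7%), beside 9.31% and 11.9% of all genes. The largest difference was that of Jade3, which encodes a scaffold of HBO1 complexes, with 7.28 in the fusion line and 10.9 in the control line (-3.59, or 12.0-fold lower). Msl3, a subunit of the MOF-containing MSL complex, read 4.90 and 6.78. Tada1, a SAGA subunit, differed by -1.36, as did the nuclear receptor coactivator gene Ncoa2. The acetyltransferase genes Ep300 (0.35) and Crebbp (-0.45) stayed within 2-fold.

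The Kmt2 genes differed in a common direction. All 5 read lower in the fusion line, with differences from -0.95 to -0.40 and a median of -0.56, but none reached 2-fold. A difference below 0 was seen for 47.5% of all genes that reached the floor. Median centring, quantile normalization and loess centring left all 5 below 0. These scalings moved no member by more than 0.1245, too little to turn any of these signs, so they are no check on the direction.

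Kmt2a, which encodes MLL1, a methyltransferase of Hox gene promoters, read 8.01 in the fusion line and 8.50 in the control line (-0.49). Its paralog Kmt2b, which encodes MLL2 and acts at bivalent promoters, read 7.04 and 7.44 (-0.40). These were the smallest differences of the prefix. Kmt2c and Kmt2d, which encode the enzymes that place monomethylation of lysine 4 at enhancers, read 7.0 and 7.60 (-0.60) and 6.90 and 7.46 (-0.56). Kmt2e encodes MLL5, which has no known methyltransferase activity of its own, and read 6.91 and 7.85 (-0.95, or 1.93-fold lower).

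The Setd genes encode proteins with a SET domain, and 7 of the 10 had a difference below 0, with a median of -0.21. Setd1a (6.63 and 6.95, or -0.33) and Setd1b (6.36 and 7.14, or -0.78) encode the catalytic subunits of the complexes that trimethylate lysine 4. With Kmt2a to Kmt2d they make up the 6 catalytic subunits of the COMPASS family. All 6 were below 0, with a median of -0.52, and 0 of them reached 2-fold. Setd2, whose enzyme trimethylates lysine 36, read 7.64 and 8.47 (-0.82), and Setd5 8.17 and 8.72 (-0.56).

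Setd7 was the Setd gene past 2-fold. It encodes a monomethyltransferase of histone H3 and of several other proteins, and read 4.42 in the fusion line and 5.93 in the control line, a difference of -1.52 or 2.86-fold. The former value lies close to the floor, so the size is uncertain. Setdb1, which encodes the lysine 9 methyltransferase that silences endogenous retroviruses, and its paralog Setdb2 went the other way, with differences of 0.48 and 0.61. Setd4 differed by 0.43. Setd3, which encodes a methyltransferase of actin, and Setd6, which encodes one of the NF-kappaB subunit RelA, differed by -0.08 and -0.10.

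The partners of these enzymes formed a list of core subunits shared by the COMPASS complexes and of subunits or cofactors of some of them. Of its 12 genes 8 were above 0, with a median of 0.16. Of the 11 that reached the floor 2 were higher (18.2%) and 0 lower, beside 9.31% and 11.9% of all genes. Dpy30, which encodes a core subunit needed for full methylation activity, read 6.51 in the fusion line and 4.96 in the control line (1.55, or 2.92-fold). Psip1, which tethers MLL1 complexes to chromatin, read 7.90 and 6.78 (1.11). Ncoa6, a subunit of the complexes of Kmt2c and Kmt2d, read 7.23 and 8.16 (-0.93), whereas Paxip1 of the same complexes differed by 0.61. The core subunit gene Wdr5 differed by 0.08.

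Histone methyltransferases outside these prefixes had a median of -0.04 over 25 measured of 29 listed, with 3 of the 23 that reached the floor higher and 0 lower, beside 9.31% and 11.9% of all genes. Prdm14, a pluripotency factor with a PR domain, read 6.55 and 3.89, the latter under the floor, Smyd3 7.01 and 5.67 and the arginine methyltransferase gene Prmt3 8.39 and 7.38. Kmt5a, which encodes the monomethyltransferase of lysine 20 of histone H4, had the largest difference below 0 (-0.88).

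**Figure D3:**
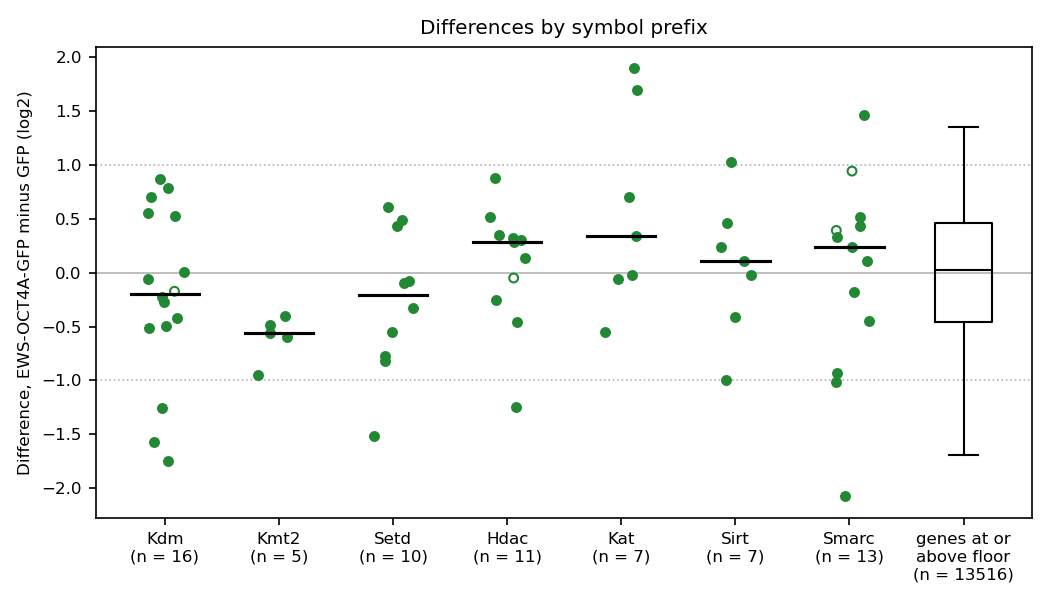
Differences (EWS-OCT4A-GFP minus GFP, log2) of the members by symbol prefix, 1 point a gene, with open circles for genes under the floor and bars at the prefix medians. The box runs from the 25th to the 75th percentile of all genes reaching the floor, with whiskers at the 5th and 95th percentiles, and the 5 Kmt2 points all lie below 0.

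Among the erasers, the Kdm demethylases numbered 16, of which 6 were above 0 and 10 below, with a median of -0.20. At 2-fold 0 were higher and 3 of the 15 that reached the floor were lower, beside 9.31% and 11.9% of all genes. Kdm6a and Kdm6b, which encode lysine 27 demethylases, were among the 3. Kdm6b, which encodes JMJD3, read 6.20 in the fusion line and 7.95 in the control line (-1.75, or 3.36-fold). A second probe set of Kdm6b lay under the floor in both samples (3.84 and 3.99), and with the mean of both probe sets the gene was no longer past 2-fold. Kdm6a, which encodes UTX, a subunit of the complexes of Kmt2c and Kmt2d, read 7.74 and 8.99 (-1.25, or 2.38-fold).

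Of the 5 lysine 4 demethylase genes 1 was above 0 and 4 below, with a median of -0.49. Kdm1b, which encodes the flavin-dependent demethylase LSD2 known from oocytes, read 6.10 in the fusion line and 7.66 in the control line (-1.57, or 2.96-fold). Its paralog Kdm1a, which encodes LSD1, read 8.01 and 8.07, so the values of the paralogs went apart. Kdm5b, which encodes a JmjC demethylase, read 9.13 and 8.26, the highest difference of the prefix (0.87). Its paralogs Kdm5a (6.76 and 7.28, or -0.52) and Kdm5c (7.58 and 8.07, or -0.49) had the opposite sign, and none of the 3 reached 2-fold.

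The lysine 9 demethylases stayed within 2-fold. Over Kdm3a, Kdm3b, Kdm4a to Kdm4d and Kdm7a the median was 0.53, with 4 of 7 above 0. Kdm3a, whose enzyme removes dimethylation of lysine 9, read 8.06 and 7.27 (0.79), and Kdm3b read 8.13 and 7.57 (0.55). Kdm4c, which acts on trimethylated lysine 9, read 7.07 and 6.36 (0.70). Its relatives Kdm4a (-0.23) and Kdm4b (-0.27) had the opposite sign. Kdm7a differed by 0.53, Kdm2a, whose enzyme binds CpG islands and demethylates lysine 36, by -0.43, and Kdm8, which encodes JMJD5, by 0.00 (below 0 under each of the 3 other scalings).

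Proteins with a JmjC domain outside the Kdm prefix had a median of 0.02 over 9 measured of 11 listed, with 0 higher and 1 lower at 2-fold (11.1%, beside 11.9% of all genes). Phf2 was the lower one, with 5.53 in the fusion line and 7.43 in the control line (-1.90). Jarid2, which encodes a partner of Polycomb complex PRC2 without demethylase activity, read 9.67 and 8.67, just short of 2-fold. Jmjd1c differed by 0.73 and Hif1an by -0.46.

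The Hdac genes had a median of 0.28 over 11 genes, with 7 above 0 and 4 below. All 4 class I genes, which encode the nuclear deacetylases of the main corepressor complexes and their relative HDAC8, were above 0, with a median of 0.42 (0.31 under loess centring). Hdac2 read 7.49 in the fusion line and 6.61 in the control line (0.88), and its paralog Hdac1 read 9.30 and 8.79 (0.51). Hdac3, the deacetylase of NCoR complexes, differed by 0.32 and Hdac8 by 0.30. These 4 differences stayed within 2-fold, and they were above 0 under median centring, quantile normalization and loess centring too. Those scalings moved no member by more than 0.1245, too little to turn any of the 4 signs.

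Hdac6 was the Hdac gene past 2-fold. Hdac6 encodes a deacetylase of tubulin that resides mainly in the cytoplasm, and read 7.08 in the fusion line and 8.33 in the control line (-1.25, or 2.38-fold). Hdac10, which encodes its class IIb relative, a polyamine deacetylase, differed by 0.28. Of the class IIa genes, whose proteins shuttle between nucleus and cytoplasm, Hdac4 differed by 0.34, Hdac5 by -0.46 and Hdac7 by -0.26. Hdac11, the class IV gene, differed by 0.14, and by 0.55 on its other probe set.

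Of the corepressor partners of class I deacetylases, in the SIN3, CoREST, NuRD and NCoR complexes, 23 of 26 listed genes were measured. At 2-fold 2 were higher and 8 lower, or 8.70% and 34.8% (backgrounds 9.31% and 11.9%), and their median was -0.48. Sap30, a SIN3 subunit, read 7.93 in the fusion line and 4.93 in the control line (3.0, or 7.98-fold), whereas Sin3b, a scaffold of that complex, read 6.68 and 8.39 (-1.71). The CoREST scaffolds, which link class I deacetylases to LSD1, did not share a direction. Rcor2 read 7.62 and 4.83 (2.79, or 6.91-fold), whereas Rcor1 read 6.71 and 8.62 (-1.91, or 3.76-fold lower) and Rcor3 5.18 and 6.69 (-1.51). Of the NuRD genes, Mbd2 (-1.61), Mta3 (-1.59) and Rbbp7 (-1.44) were lower, whereas Mta1 (0.55) and Rbbp4 (0.75) were above 0 and within 2-fold. Gatad2a (-0.80), Gatad2b (-0.53), Mta2 (-0.36) and Mbd3 (-0.03) were below 0 and within 2-fold.

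Of the 7 sirtuin genes 4 were above 0 and 3 below, with a median of 0.11 (0.04 under loess centring). Under quantile normalization 5 were above 0, since Sirt6 changed sign. Sirt1, which encodes a nuclear deacetylase of histones and p53, read 9.07 in the fusion line and 8.04 in the control line (1.03, or 2.04-fold). Sirt7, which encodes a nucleolar deacetylase, read 4.99 and 5.98 (-0.99), in the other direction. Sirt6, which encodes a deacetylase of lysine 9 of histone H3, read 7.22 and 7.25. Sirt2, whose enzyme is mainly cytoplasmic, differed by -0.41. The genes of the mitochondrial sirtuins, which do not act on chromatin, were Sirt3 (0.24), Sirt4 (0.11) and Sirt5 (0.46).

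Among the remodelers, the Smarc genes numbered 13, of which 8 were above 0 and 5 below, with a median of 0.24. It was 0.10 over the 11 members at or above the floor. Of those 11, 1 was higher (9.09%) and 2 lower (18.2%), beside 9.31% and 11.9% of all genes. The higher one was Smarcd1, on 1 of its 2 probe sets. The 2 alternative ATPases of SWI/SNF had unequal differences. Smarca2, which encodes BRM, read 3.81 in the fusion line and 5.89 in the control line, a difference of -2.07. The former value lies under the floor, and with it set to the floor the difference was 3.46-fold, less than that of Kat2b. Smarca4, which encodes BRG1, read 8.31 and 8.49 (-0.18).

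The scaffold subunits Smarcc1 and Smarcc2 also had unequal differences. Smarcc1, which encodes BAF155, the form that predominates in embryonic stem cells, read 8.43 in the fusion line and 8.33 in the control line (0.10, with the sign turned under loess centring). Smarcc2, which encodes BAF170, read 6.41 and 7.34 (-0.93). That difference stayed within 2-fold.

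The BAF60 subunits are encoded by Smarcd1 to Smarcd3. Smarcd1 read 7.11 in the fusion line and 5.65 in the control line (1.46, or 2.75-fold) on the probe set with the higher mean. Its other probe set read 5.11 and 6.15 (-1.04), the opposite direction, so the direction of Smarcd1 is not settled by these data. Smarcd2 read 5.32 and 6.33 (-1.01, or 2.02-fold). The core subunit gene Smarcb1 differed by 0.24 and Smarce1, which encodes BAF57, by -0.45. Over the 8 SWI/SNF subunits 1 was higher, 2 lower and 5 within 2-fold, with a median of -0.31. With the other probe set of Smarcd1 0 were higher and 3 lower, with a median of -0.69.

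SWI/SNF subunits outside the Smarc prefix had a median of -0.32 over 18 measured of 19 listed, with 1 higher and 2 lower (5.88% and 11.8%, beside 9.31% and 11.9% of all genes). Arid1b, which encodes a BAF subunit that excludes its paralog Arid1a from the same complex, read 6.97 in the fusion line and 8.53 in the control line (-1.56, or 2.95-fold). Ss18, a BAF subunit known from the fusion of synovial sarcoma, read 7.99 and 6.77 (1.22). Dpf3, known from the BAF of muscle and neurons, read 3.93 and 4.97 (-1.04). The former value lies under the floor, and with it set to the floor the difference was -0.88 and no longer past 2-fold. Bicra, a subunit of the noncanonical complex, differed by -0.80.

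Of the remaining Smarc genes, Smarca5-ps is a pseudogene and the others encode ATPases outside SWI/SNF. Smarca5, which encodes the ISWI ATPase SNF2H, read 7.52 and 7.19 (0.33). Smarcad1, known for keeping lysine 9 methylation through replication, differed by 0.52, and Smarcal1, an annealing helicase of stalled replication forks, by 0.43. Smarca1, which encodes SNF2L, read 3.94 and 3.0, both under the floor.

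**Figure D4:**
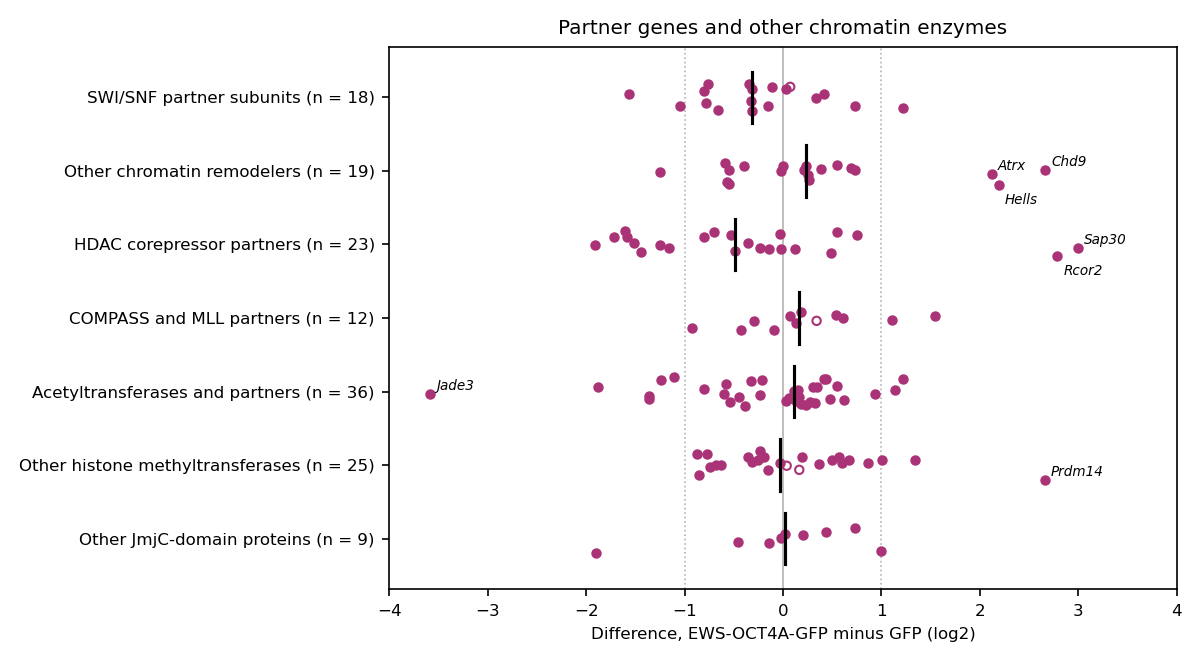
Differences (EWS-OCT4A-GFP minus GFP, log2) of the measured genes on 7 lists of partner subunits and other chromatin enzymes, 1 point a gene, with open circles under the floor and bars at the medians. Genes differing by a log2 value of 2 or more are named, and the HDAC corepressor partners hold 8 genes past 2-fold below 0.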

How the data were processed

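Total RNA of 2 samples was profiled on an Affymetrix array. The authors deposited log2 values made with RMA in Affymetrix Expression Console 1.1, per the submitters' processing notes. The log base is inferred from the method and the range (0.618 to 13.0). RMA quantile-normalizes the arrays, which hides a shift of most genes, and compresses differences of low values. The design text says that experiments were duplicated, but the sources used here do not say whether a column is 1 array or a mean. Precision is limited by the number of arrays.

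Of 33793 probe sets, 23521 with 1 symbol in the platform annotation named 22180 genes. All 69 member gene IDs were found in RefSeq (assembly GRCm38.p6) and 0 symbols differed. With 1 sample a group no test was run. The members, the lists (7 partner lists with 153 entries, 142 measured, and 4 marker lists) and the thresholds were chosen with earlier results of these data known. Every member was named, with both values for those past 2-fold and for fixed paralogs. The plan allowed up to 3 further members of each prefix and up to 4 genes of each partner list. More were given for the Kdm and Setd prefixes and for the corepressor list, a choice made with the values known. Ep300, Crebbp and Wdr5 were added for their roles. The paralog pairs and motif matches whose promoters are printed were chosen after their values were seen. The procedure was tested on simulated data. The software was Python 3.11.15, numpy 2.4.6, pandas 2.3.3, statsmodels 0.14.6 and matplotlib 3.10.9.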

Additional observations from a re-analysis of the deposited data

How the results depend on the processing

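No paired analysis was possible because each line has 1 sample, and no sample could be left out. The counts of members past the size threshold, 4 higher and 7 lower, were 10 and 13 at a 1.5-fold size, and 2 in each direction at 3-fold. The median of the Smarc genes, 0.24, was 0.10 over members at or above the floor. It was also 0.10 with the other probe set of Smarcd1, an alternative chosen after seeing the data. The medians of the other 6 prefixes moved by less than 0.1, and the counts of all members by less than 1.5 times, under the other alternatives run (floor, median, quantile and loess scaling, mean of probe sets, pseudogene left out). Of the 11 members past 2-fold, 10 kept their call under median and loess centring, which lost Sirt1, and 11 under quantile normalization. Loess centring moved the median of the class I deacetylases from 0.42 to 0.31 and that of the SWI/SNF subunits from -0.31 to -0.41. With the mean of probe sets 9 did, without Kdm6b and Smarcd1. Signal over background is unknown, which limits genes near the floor.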

Other observations

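Other ATP-dependent remodelers, a list of 19 genes that were all measured, had a median difference of 0.23, with 3 genes at least 2-fold higher (15.8%) and 1 lower (5.26%), beside 9.31% and 11.9% of all genes. Chd9, a chromodomain helicase, read 7.56 in the fusion line and 4.90 in the control line (2.67, or 6.35-fold). Hells, which encodes LSH, a remodeler needed for DNA methylation of repeats, read 9.15 and 6.96 (2.19, or 4.57-fold). Atrx, which works with DAXX to place histone H3.3 at repeats, read 8.96 and 6.83 (2.12, or 4.35-fold). The lower gene was Baz1a, which encodes the ACF1 partner of the ISWI ATPase SNF2H, with 5.48 and 6.73 (-1.25), while Smarca5, the gene of that ATPase, differed by 0.33.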
